A study of Mus musculus with 11 samples.

Results

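The 97 genes described here encode subunits of the mitochondrial respiratory chain and of ATP synthase. They were chosen by gene symbol alone. Complex I took the Nduf genes of the a, b, c, s and v series, complex II the Sdh genes a to d, complex III the Uqcr genes, complex IV the Cox4 to Cox8 genes and complex V the Atp5 genes. To these came the protein-coding genes of the mitochondrial genome, whose symbols begin with mt-. The rule found 97 of the 37375 genes in either deposited table, 84 in the nuclear genome and 13 in the mitochondrial genome, and 4 pseudogene names ending in -ps were left out. By complex there were 37 nuclear and 7 mt- genes for complex I, 4 nuclear genes for complex II, 8 nuclear and 1 mt- for complex III, 18 nuclear and 3 mt- for complex IV, and 17 nuclear and 2 mt- for complex V. The symbol decides the complex here, so Ndufa4 counts under complex I although its protein sits in complex IV, and Atp5s and Atp5sl count under complex V although they are not ATP synthase subunits.

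The libraries came from sorted macrophages of C57BL/6 mice 6 to 8 weeks old that carried a Lewis lung carcinoma, a transplanted lung tumor line, and were used 14 days after its injection. KO_TAM libraries (n = 4) held tumor-associated macrophages of LysMCre;Sin1fl/fl mice, WT_TAM libraries (n = 4) those of Sin1fl/fl mice, and WT_SP libraries (n = 3) splenic macrophages of Sin1fl/fl mice. All mice carried the floxed Sin1 allele, so WT means floxed without Cre. Sin1, encoded by Mapkap1, is a subunit of mTOR complex 2, and LysM-Cre deletes floxed sequence in the myeloid lineage as a whole, not in tumor macrophages alone. Tumor macrophages were the CD11b+ F4/80+ cells among CD45+ cells negative for Ly6G and Ly6C, and spleen macrophages were CD45+ TCRβ- Ly6G- Ly6C- CD11blo F4/80+. Whether libraries of a group came from different mice is not stated, so the tests weigh differences against a spread that may be partly technical. The authors deposited the KO_TAM and WT_TAM libraries in 1 table, called the genotype table here, and the WT_TAM and WT_SP libraries in another, the site table, and each comparison stays within its table.

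Complexes I to IV carry electrons from NADH and succinate to oxygen, pumping protons at complexes I, III and IV, and complex V uses the proton gradient to make ATP. Complex II is made of nuclear-encoded subunits only, whereas each of the other complexes joins nuclear-encoded and mitochondrially encoded subunits. The mt- mRNAs are cut from long transcripts that run around the mitochondrial genome, so both genomes must supply a working chain. In macrophages the balance between the chain and glycolysis is known to shift with activation.

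Library totals ran from 9859803 to 13118534 reads in KO_TAM, from 7639550 to 13077647 in WT_TAM and from 10635143 to 11817517 in WT_SP. Mapkap1 stood at 44.0, 54.1, 43.3 and 45.9 CPM (reads per 1000000 reads of the scaled library) in KO_TAM and at 71.1, 66.4, 59.7 and 30.7 CPM in WT_TAM. The library labelled WT_TAM replicate 4 thus had less Mapkap1 than every KO_TAM library, against its label, and the part of the gene that Cre removes is not marked in these values. Deviations of this library also depended on gene length, as described below, and Sdha and Ndufs1 were low in it too. Whether its label is right was not tested. The 8 macrophage markers summed to between 9459 and 20895 CPM in KO_TAM, lowest in KO_TAM replicate 2, and to between 28215 and 39622 CPM in WT_TAM. This sum was higher in every WT_TAM library, the library labelled WT_TAM replicate 4 included, than in any KO_TAM library. Lyz2 alone averaged 10333 CPM in KO_TAM and 27423 CPM in WT_TAM, while the median log2 fold change of the 8 markers was -0.04 and 0 of them passed the limma threshold. The difference between these sums thus rested largely on Lyz2. Only KO_TAM mice carried LysM-Cre, so the sums are no measure of macrophage number between genotypes. In the table that holds the spleen they summed to between 31957 and 41914 CPM in WT_TAM and to between 3345 and 3708 CPM in WT_SP, where 7 B and plasma cell markers summed to between 7896 and 8990 CPM. In bulk libraries like these, fewer cells of a type and less RNA per cell cannot be told apart.

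For several mt- genes the mouse genome holds a second address. A block of 4663 bases on chromosome 1 (GRCm38, chr1:24611535-24616197, minus strand) carries 7 annotated pseudogenes that match 7 mt- members nearly base for base. The copy is the same as mt-Nd3 over 342 bases (98.3% of the gene), mt-Co3 over 783, mt-Co2 over 681, mt-Atp6 over 678, mt-Nd4l over 294 and mt-Nd4 over 876 (63.6% of the gene), with 0 mismatches in each. A longer alignment of mt-Nd3 with its copy covers 345 bases at 99.7% identity, so they differ outside the 342 bases. Over mt-Co1 it covers 483 bases, or 31.3% of the gene, with 1 mismatch. mt-Co1 also has a copy over its whole length of 1545 bases on chromosome 2, Gm13340 (GRCm38, chr2:22588103-22589647), at 97.6% identity. Gm13340 held 84, 313, 93 and 264 reads in WT_TAM and 40, 38 and 39 reads in WT_SP. mt-Nd1, mt-Nd2, mt-Nd5, mt-Nd6 and mt-Cytb have no annotated copy at 97% identity or more over at least 100 bases. The stretches below, read from the GENCODE vM21 transcripts, show what a sequencing read would meet, first at mt-Nd3 (chrM:9603-9663, plus strand) and its copy Gm28438 (chr1:24612915-24612975, minus strand), then at mt-Co1 (chrM:6390-6423, plus strand) and its copy Gm29216 (chr1:24616155-24616188, minus strand). Capitals mark the base that differs.
mt-Nd3: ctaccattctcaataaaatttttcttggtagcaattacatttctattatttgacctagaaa
Gm28438: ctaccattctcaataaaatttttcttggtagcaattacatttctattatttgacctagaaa
mt-Co1: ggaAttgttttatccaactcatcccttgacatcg
Gm29216: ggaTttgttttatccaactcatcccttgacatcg
A read inside the first pair matches both addresses equally. Over the second stretch the 2 addresses shown differ in only that 1 base.

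The levels of the mt- members fell into a high and a low set. Per kilobase of the length behind the deposited values, and averaged over the libraries of the genotype table, mt-Nd1 stood at 5334 CPM per kilobase, mt-Co1 at 5096, mt-Cytb at 4051, mt-Nd2 at 1132, mt-Nd4 at 1020, mt-Nd5 at 494 and mt-Nd6 at 407. Those with a copy on chromosome 1 over more than 90% of the gene were all lower, whereas mt-Co1, with its less similar copy on chromosome 2, was in the high set. Of the lower ones, mt-Co3 stood at 93.2, mt-Co2 at 52.3, mt-Atp6 at 34.4, mt-Nd3 at 3.82 and mt-Nd4l at 0.225 CPM per kilobase. mt-Atp8, which overlaps mt-Atp6 on the genome, stood at 0.852 CPM per kilobase and has no such copy listed here. The lengths behind the deposited values of mt-Atp8 and mt-Nd4l, 682 and 838.5 bases, exceed those of the annotated genes. Levels of these 6 genes are therefore uncertain, because the authors' counting could have split or dropped their reads. The sources used here do not state how reads with several places were treated.

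Among the nuclear members the level per kilobase was highest for Atp5b, the catalytic beta subunit of ATP synthase, at 698 CPM per kilobase. Cox6b1, Cox6a1, Cox8a and Cox4i1 followed at 640, 632, 603 and 539 CPM per kilobase, all of them nuclear subunits of complex IV. Ndufa2 led complex I at 402 and Uqcr10 led complex III at 390 CPM per kilobase. In the site table the same 5 genes led, with Atp5b at 772 CPM per kilobase. Of the 84 nuclear members, 19 have at least 1 pseudogene at 97% identity or more over 100 bases (10 of them for Atp5l), so small shifts of their reads are possible as well.

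Summed over the 84 nuclear members, the respiratory chain took 9448, 8739, 9782 and 10255 CPM in KO_TAM and 11413, 10716, 10773 and 21796 CPM in WT_TAM. Each KO_TAM sum was below each WT_TAM sum on this scale, and the library labelled WT_TAM replicate 4 lay far above the rest. As percent of the library total the groups overlapped, with 1.10 in KO_TAM replicate 4 and 1.03 in WT_TAM replicate 2. The KO_TAM mean of 9556 ± 638 CPM was 0.699 times the WT_TAM mean of 13675 ± 5423 CPM (SD, n = 4 in both groups). The 13 mt- members summed to 5656, 3856, 16000 and 8899 CPM in KO_TAM and to 9757, 61258, 16893 and 49321 CPM in WT_TAM. These ranges overlap, since KO_TAM replicate 3 lay between WT_TAM replicates 1 and 3. The KO_TAM mean of 8603 ± 5355 CPM was 0.251 times the WT_TAM mean of 34307 ± 24885 CPM (SD, n = 4 in both groups).

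**Figure D1:**
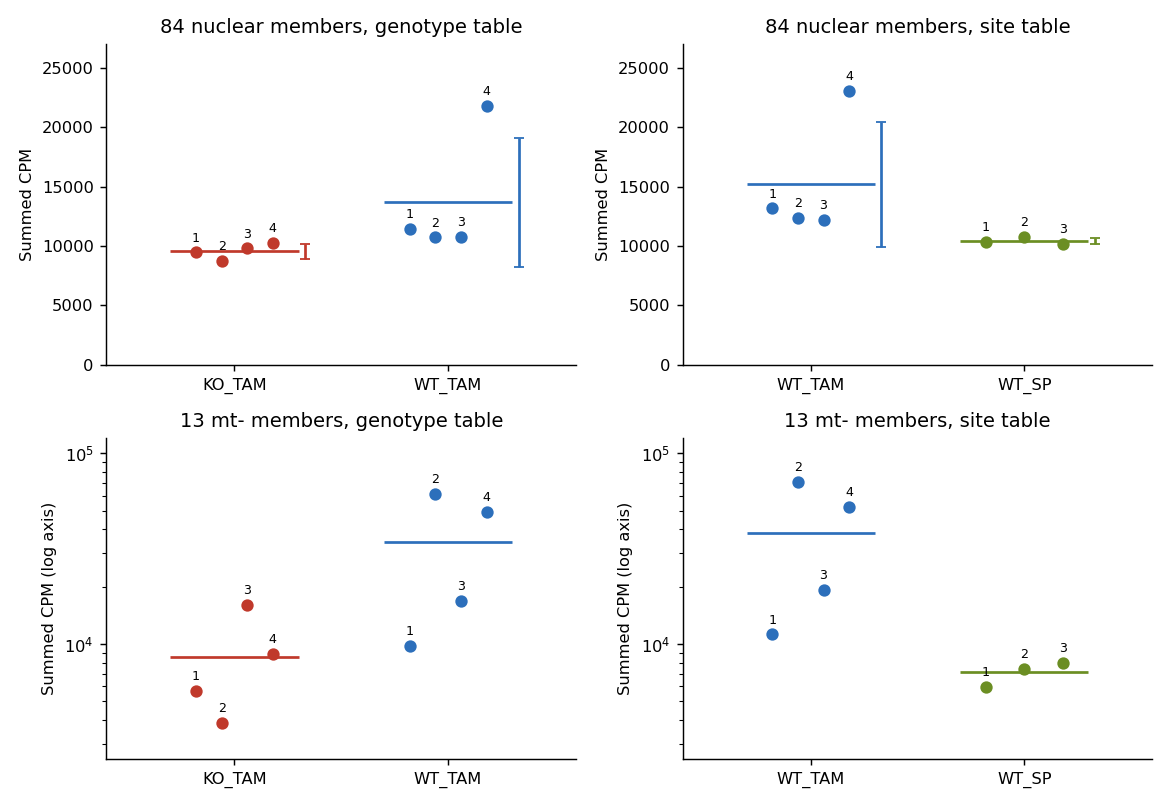
Summed CPM of the 84 nuclear members (top, linear axis from 0) and of the 13 mt- members (bottom, log axis) in every library, by group, for the genotype table (left) and the site table (right). Points are libraries with their replicate number and horizontal bars group means, with SD as error bars in the nuclear panels; nuclear sums lie between 8739 and 10255 in KO_TAM, and between 10716 and 21796 in WT_TAM, while mt- sums reach 61258 in WT_TAM replicate 2.

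The 2 genomes did not move in step across libraries. Divided by the nuclear sum, the mt- sum was 0.599, 0.441, 1.64 and 0.868 in KO_TAM and 0.855, 5.72, 1.57 and 2.26 in WT_TAM. WT_TAM replicate 2 had the highest mt- sum and the lowest nuclear sum of its group, whereas the library labelled WT_TAM replicate 4 was high in both. Group means were 0.886 ± 0.530 in KO_TAM and 2.60 ± 2.16 in WT_TAM (SD, n = 4 each), and KO_TAM replicate 3 exceeded 2 of the 4 WT_TAM libraries. A choice made after seeing the data kept only 5 of the mt- members without a near-identical copy, leaving out mt-Atp8. With these 5 the ratio of the group means was 0.334, against 0.341 with all 13. Without WT_TAM replicate 2 that ratio was 0.567 with all 13. In WT_SP the ratio was 0.576, 0.689 and 0.785, with a mean of 0.683 ± 0.105 (SD, n = 3), below every WT_TAM library of the site table. The WT_TAM mean there was 3.81 times the WT_SP mean, and 2.29 times without WT_TAM replicate 2.

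The mt- genes also differed in which of them were high. In WT_TAM replicate 2 the 3 complex IV genes summed to 28536 CPM and the 7 complex I genes to 20535 CPM. In the library labelled WT_TAM replicate 4 the order was the other way, with 10891 CPM for complex IV and 27118 CPM for complex I. Most of the complex IV sum was mt-Co1, the catalytic subunit of cytochrome c oxidase, at 28318 CPM in the first of these libraries and 10467 CPM in the second. mt-Nd2, a complex I subunit, was at 2101 CPM in the first and 4844 CPM in the second. The 2 mitochondrial rRNAs summed to 543 to 1655 CPM in KO_TAM and to 932 to 19156 CPM in WT_TAM, highest in the library labelled WT_TAM replicate 4 and next in WT_TAM replicate 2.

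The comparison of KO_TAM with WT_TAM asks whether loss of Sin1 in myeloid cells changes these genes in tumor macrophages. Most nuclear members were slightly lower in KO_TAM, and none passed the test. Of 84 nuclear members 80 had enough reads to test, and 78 of these had a lower mean in KO_TAM, where 49.5% of all 12873 genes tested did. Their median log2 fold change was -0.47, beside 0.01 over all genes tested. With limma and Benjamini-Hochberg adjustment over all genes, 0 of 80 members passed at adjusted p under 0.05, as did 0% of all genes; at unadjusted p under 0.05 there were 7 of 80, beside 18.4% of all genes. Adjusted p ran from 0.220 to 0.983. In 24 of the 80 every KO_TAM library lay below every WT_TAM library, beside 8.72% of all genes tested, and in 0 above, beside 6.39%. Without the library labelled WT_TAM replicate 4 the median was -0.19, and groups did not overlap in 27 members (33.8%), beside 11.6% of all genes.

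Complex I showed the pattern in most of its subunits. Its 37 nuclear members had a median log2 fold change of -0.45, 36 of 37 had a lower mean in KO_TAM, and 14 had groups that did not overlap (8.72% of all genes tested were lower without overlap). The median was -0.18 without the library labelled WT_TAM replicate 4. Ndufb8, an accessory subunit of the membrane arm, stood at 50.5, 43.3, 54.3 and 53.1 CPM in KO_TAM and at 77.6, 59.6, 60.6 and 143 CPM in WT_TAM (log2 fold change -0.66, SE 0.27, limma adjusted p = 0.248). Its KO_TAM libraries lay below its WT_TAM libraries with or without the library labelled WT_TAM replicate 4. Ndufs1, the largest iron-sulfur subunit, was the exception at 0.31, with 69.8, 66.5, 71.2 and 75.0 CPM in KO_TAM and 68.5, 71.7, 69.5 and 30.8 CPM in WT_TAM. Its groups overlapped, and only the library labelled WT_TAM replicate 4 stood apart.

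Complex II, whose 4 subunits also form succinate dehydrogenase of the citric acid cycle, was the one complex whose nuclear sum the library labelled WT_TAM replicate 4 did not raise. Its sum was 825, 798, 820 and 854 CPM in KO_TAM and 958, 949, 941 and 945 CPM in WT_TAM. On this scale the groups did not overlap, and the ratio of the means was 0.869. In the library labelled WT_TAM replicate 4, Sdha deviated by -1.31 and Sdhb by 0.84 from the mean log2 level of the other WT_TAM libraries. These opposite shifts offset each other in the sum, so its narrow WT_TAM range does not mean that single genes were steady. Single genes gave less: the median log2 fold change was -0.21 and limma adjusted p ran from 0.340 to 0.983. Sdhc, a membrane anchor with groups that did not overlap, had 126, 108, 130 and 130 CPM in KO_TAM and 146, 152, 136 and 172 CPM in WT_TAM. Sdha, the flavoprotein that holds the active site, had 271, 248, 248 and 266 CPM in KO_TAM and 320, 327, 315 and 129 CPM in WT_TAM. Its log2 fold change was 0.01 with all libraries and -0.31 without the library labelled WT_TAM replicate 4 (limma adjusted p = 0.200).

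In complexes III, IV and V the medians were -0.52, -0.60 and -0.47, and every tested nuclear member had a lower mean in KO_TAM. They were -0.25, -0.23 and -0.24 without the library labelled WT_TAM replicate 4. Of the 8 members of complex III, Uqcrh and Uqcrq had groups that did not overlap. Such counts here are read beside the 8.72% of all genes tested that were lower without overlap. Uqcrq, a small subunit of the membrane part, averaged 108 CPM in KO_TAM and 211 CPM in WT_TAM. In complex IV the same held for 3 of 14 tested, Cox4i1, Cox6b1 and Cox7a2l. Cox4i1, the common form of the regulatory subunit 4, had 252, 196, 268 and 278 CPM in KO_TAM and 322, 316, 306 and 1004 CPM in WT_TAM (log2 fold change -0.77, SE 0.36, limma adjusted p = 0.284). For Cox4i1 it was -0.35 without the library labelled WT_TAM replicate 4 and -0.24 once KO_TAM replicate 2 was left out too. Cox7a2l had 51.5, 37.2, 60.9 and 62.7 CPM in KO_TAM and 67.7, 82.5, 69.8 and 147 CPM in WT_TAM. It had the lowest adjusted p of the nuclear members, 0.220 by limma, at -0.74 on the log2 scale (SE 0.28), and was at -0.49 without the library labelled WT_TAM replicate 4. In complex V the groups did not overlap for 4 of 17 tested, Atp5c1, Atp5d, Atp5g3 and Atp5o. Atp5b, beside them the most abundant member, had 1174, 1013, 1168 and 1258 CPM in KO_TAM and 1381, 1365, 1347 and 1192 CPM in WT_TAM, so that only the library labelled WT_TAM replicate 4 fell inside the KO_TAM range.

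The forms of complex IV subunits that depend on tissue or oxygen were at low levels in both groups. Cox6b2 had 0.305, 0, 1.25 and 0.882 CPM in KO_TAM and 1.83, 0.764, 1.16 and 4.34 CPM in WT_TAM (log2 fold change -1.15, SE 0.51, limma adjusted p = 0.268). Cox4i2, the form used at low oxygen, had 2.44, 0.827, 1.504 and 3.79 CPM in KO_TAM and 1.83, 2.72, 5.09 and 8.52 CPM in WT_TAM. Groups overlapped in both. Cox6a2, Cox7b2, Cox8b and Cox8c had too few reads to be tested, and Cox8b reached at most 0.103 CPM in any of these libraries, at 1 read.

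The mt- members were lower in KO_TAM by more, with a wider spread. All 11 that could be tested had a lower mean, with a median log2 fold change of -2.005. With limma 0 of 11 passed at adjusted p under 0.05 and 10 of 11 had an unadjusted p under 0.05, beside 18.4% of all genes. In none of the 11 did the groups separate, and KO_TAM replicate 3 lay above the lowest WT_TAM library in each of the genes named next. mt-Co3, a core subunit of complex IV, had the largest difference, with 10.7, 6.30, 33.3 and 15.9 CPM in KO_TAM and 33.1, 135, 39.0 and 312 CPM in WT_TAM (log2 fold change -2.60, SE 0.71, limma adjusted p = 0.135). mt-Nd1, a complex I subunit with no near-identical copy, had 1115, 715, 3332 and 1937 CPM in KO_TAM and 1991, 13226, 4015 and 14548 CPM in WT_TAM (log2 fold change -2.06, SE 0.66, limma adjusted p = 0.176). mt-Cytb, the only mitochondrially encoded subunit of complex III, had 1304, 939, 3262 and 2069 CPM in KO_TAM and 2303, 12135, 3857 and 11234 CPM in WT_TAM. Without the library labelled WT_TAM replicate 4 the median was -1.49, and without KO_TAM replicate 2 as well it was -1.18, with 0 of 11 at unadjusted p under 0.05.

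**Figure D2:**
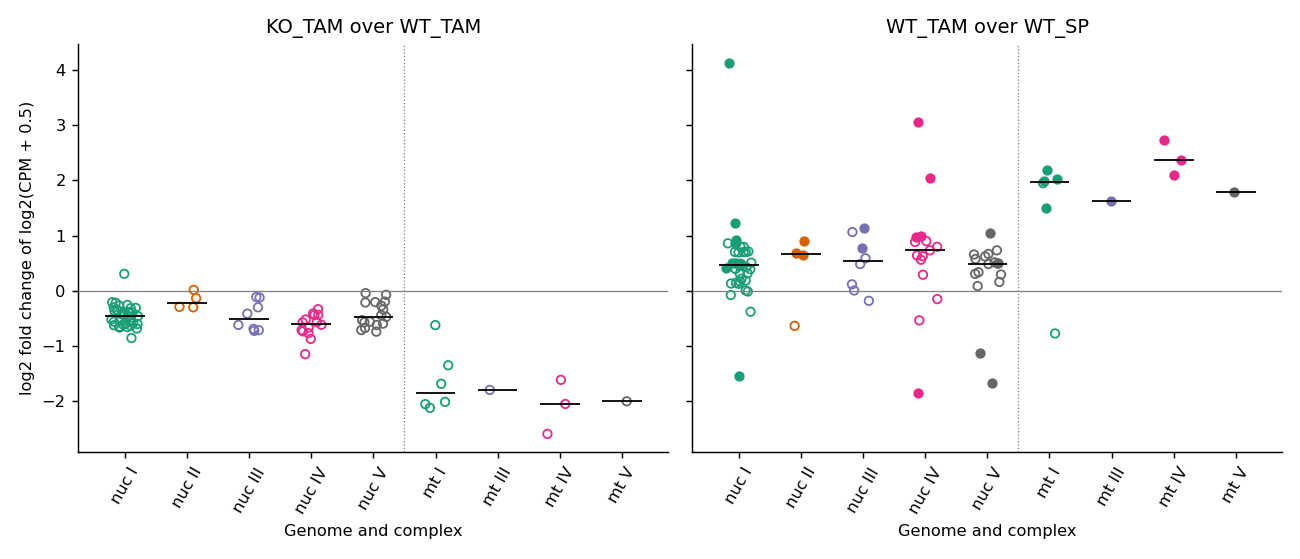
Log2 fold change on the log2(CPM + 0.5) scale of every tested member, by genome (nuc, nuclear; mt, mitochondrial) and complex, for KO_TAM over WT_TAM (left, 80 nuclear and 11 mt- members) and WT_TAM over WT_SP (right, 81 and 11). Each circle is a gene, filled where limma adjusted p was under 0.05, and black bars are medians; on the left no circle is filled, and the nuclear median is -0.47 and the mt- median -2.005.

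Markers of other cells differed between these groups too. The 7 fibroblast markers summed to 28.2 to 235 CPM in KO_TAM and 385 to 854 CPM in WT_TAM, with no overlap. The 6 erythroid markers summed to 26.0 to 262 CPM in KO_TAM and 152 to 729 CPM in WT_TAM. The 10 neutrophil markers summed to 277 to 954 CPM in KO_TAM and 111 to 206 CPM in WT_TAM, and the 7 markers of eosinophils, basophils and mast cells to 243 to 938 CPM in KO_TAM and 19.1 to 172 CPM in WT_TAM. Among the defining neutrophil genes, Ly6g averaged 0.0381 CPM in KO_TAM and 0.0183 CPM in WT_TAM. No gene of these lists was at 0 in every library, and none of their members passed the limma threshold. Of the lists for RNA quality, 3 nuclear-retained RNAs had a median log2 fold change of 1.11 in KO_TAM over WT_TAM. It was 0.99 without the library labelled WT_TAM replicate 4. For 9 genes of dissociation stress the median was 0.12, and -0.13 without that library. None of these genes passed the limma threshold either. The part of all these lists in the lower respiratory chain values was not tested.

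How far the library labelled WT_TAM replicate 4 stood from its group depended on gene length. For each of the 80 tested nuclear members, its log2 level was compared with the mean of the other 3 WT_TAM libraries. The 27 shortest members (289 to 488 bases) were higher by a median of 1.51, the next 27 (490 to 751 bases) by 1.31 and the 26 longest (760 to 2536 bases) by 0.39. Across these members the deviation and the log length had a Pearson correlation of -0.85 (n = 80 genes that share 1 library, so a description), and over 11960 genes of the table it was -0.29. In the KO_TAM libraries, each against the other 3, the same correlation lay between -0.19 and 0.22. In WT_TAM replicates 1, 2 and 3 it was 0.50, 0.74 and 0.61, against means that include the library labelled WT_TAM replicate 4. In the WT_SP libraries, each against the other 2 and over the 81 members tested there, it was 0.30, -0.43 and 0.21. 2 of the long members were lower in this library: Sdha had 129 CPM against 315 to 327 in the other 3, and Ndufs1 30.8 CPM against 68.5 to 71.7. The difference between genotypes changed with length in the same libraries. With all libraries the median log2 fold change of the short, middle and long members was -0.57, -0.54 and -0.30, and without the library labelled WT_TAM replicate 4 it was -0.12, -0.20 and -0.21, with 24 of 27, 27 of 27 and 23 of 26 members lower in KO_TAM.

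**Figure D3:**
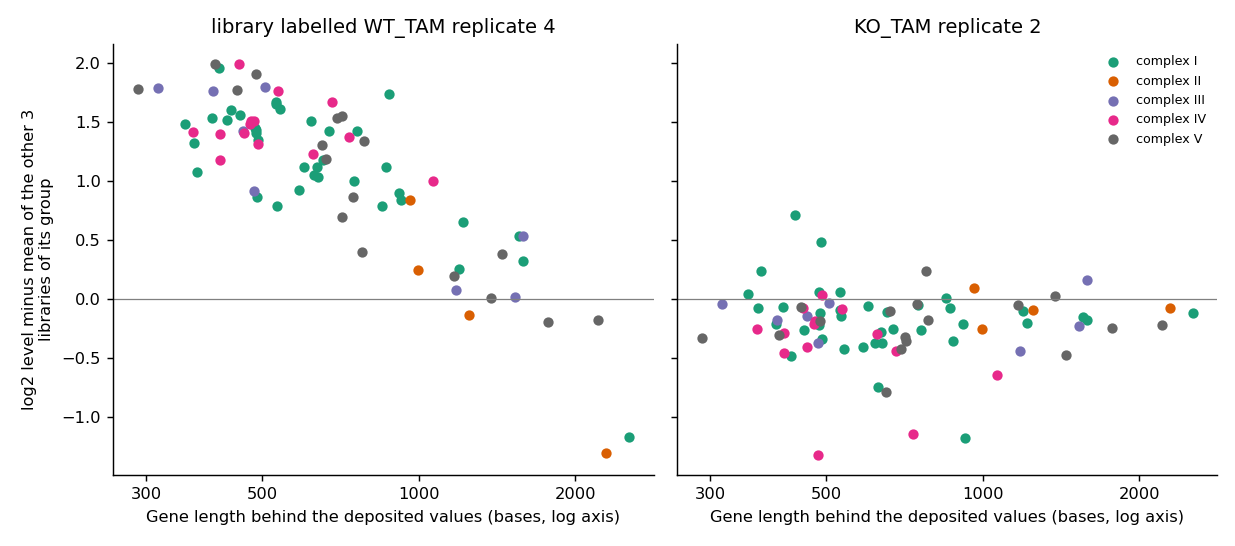
Deviation of each tested nuclear member from the mean log2 level of the other 3 libraries of its group, against the gene length behind the deposited values (log axis), in the library labelled WT_TAM replicate 4 (left) and in KO_TAM replicate 2 (right). Each point is a gene coloured by complex; on the left the 27 shortest members lie at a median of 1.51 and the 26 longest at 0.39, and on the right the corresponding medians are -0.19 and -0.18.

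The comparison of WT_TAM with WT_SP asks how macrophages of the tumor differ from those of the spleen in the same kind of mouse. It shares the WT_TAM libraries with the first comparison, so the 2 are not independent. More nuclear members were higher than lower in WT_TAM. Of 81 members tested with limma, 19 rose and 4 fell at adjusted p under 0.05, which is 28.4% of them, beside 46.7% of all 14239 genes tested (23.1% higher and 23.6% lower). In 43 members (53.1%) every WT_TAM library lay above every WT_SP library, beside 26.3% of all genes, and in 6 (7.41%) below, beside 29.8%. The median log2 fold change was 0.50, beside -0.07 over all genes tested. These directions are relative to a scaling: with the library total alone, which moves the median of all genes to -0.52, the nuclear median was 0.02, with 3 members higher and 7 lower, beside 14.9% and 39.4% of all genes. Calls also depended on single libraries. Without the library labelled WT_TAM replicate 4, 44 members were higher and 10 lower (66.7%, beside 65.7% of all genes, 32.2% higher and 33.5% lower). The calls in both directions came to 13 without WT_TAM replicate 1 and to 9, 9 and 8 without WT_SP replicates 1, 2 and 3. Shares of all genes are not given for these last settings, so a loss of calls among members cannot be told from a general one.

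The summed nuclear members stood at 13150, 12374, 12202 and 23056 CPM in WT_TAM and at 10329, 10731 and 10181 CPM in WT_SP. On this scale all WT_TAM libraries were higher, and the means were 15196 ± 5256 CPM in WT_TAM (SD, n = 4) and 10414 ± 285 CPM in WT_SP (SD, n = 3). As percent of the library total they were 1.19, 1.03, 1.16 and 1.84 in WT_TAM and 1.24, 1.31 and 1.23 in WT_SP. There the library labelled WT_TAM replicate 4 lay above WT_SP and the other WT_TAM libraries lay below it, so the order depends on the scaling. Complex I had 8 members higher and 1 lower at adjusted p under 0.05, with a median of 0.47 over 37. Complex III had 2 higher of 8, Uqcrb and Uqcrq, and complex V 2 higher and 2 lower of 17. Complex IV had 4 higher and 1 lower of 15 tested, with a median of 0.73. Called members thus made up 24.3% in complex I, 25% in III, 33.3% in IV and 23.5% in V, beside 46.7% of all genes tested.

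Among the nuclear members complex II was called most often, in 3 of its 4 genes, all higher in WT_TAM (75%, beside 23.1% of all genes called higher). Sdhd, a membrane anchor of succinate dehydrogenase (chr9:50596357-50603812, minus strand), had 291, 298, 288 and 246 CPM in WT_TAM and 150, 149 and 150 CPM in WT_SP. The groups were far apart and tight (log2 fold change 0.90, SE 0.16, limma adjusted p = 0.00153). Sdhc rose by 0.68 and Sdhb, the iron-sulfur subunit, by 0.66 on the log2 scale. Sdha, the flavoprotein, had 368, 377, 357 and 137 CPM in WT_TAM and 440, 454 and 445 CPM in WT_SP (log2 fold change -0.64, SE 0.35, limma adjusted p = 0.172). Its WT_TAM libraries were all below WT_SP, so the 4 subunits of this complex did not share a direction. Sdha was called lower at -0.28 without the library labelled WT_TAM replicate 4 (limma adjusted p = 0.00757), at -0.31 with array weights (0.0266) and at -1.11 with the library total alone (0.0381). With the library total alone Sdhd was at 0.43 and Sdhb at 0.18, and neither passed any longer (limma adjusted p = 0.0777 and 0.495).

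Several subunits that exist in more than 1 form differed between the sites. Ndufa4, a subunit of cytochrome c oxidase despite its name (chr6:11900292-11907497, minus strand), fell to 41.9, 34.7, 33.3 and 61.8 CPM in WT_TAM, against 114, 136 and 118 CPM in WT_SP. Its log2 fold change was -1.55 (SE 0.24, limma adjusted p = 0.000821). Ndufa4l2, its paralog known as a target of the oxygen-sensing factor HIF-1 (chr10:127514967-127517154, plus strand), had 7.60, 15.1, 3.67 and 12.95 CPM in WT_TAM and 0.0705, 0 and 0 CPM in WT_SP. That is 365 reads over the WT_TAM libraries and 1 read over the WT_SP libraries, a ratio per depth of 376 with a 95% exact interval from 67.1 to 14892 that covers counting error only. The pair thus ran in opposite directions, and every library of one group lay outside the range of the other.

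AA467197, which is no member and was picked after its values were seen, encodes a small protein known as NMES1 or C15orf48 in human that takes the place of NDUFA4 in complex IV. It had 160, 158, 156 and 279 CPM in WT_TAM and 0.564, 0.309 and 0.880 CPM in WT_SP (log2 fold change 7.43, SE 0.28, limma adjusted p = 5.55e-07). Between genotypes its groups overlapped, at 148, 100, 211 and 175 CPM in KO_TAM and 139, 137, 137 and 263 CPM in WT_TAM (log2 fold change -0.08, SE 0.29, limma adjusted p = 0.890). For Ndufa4 the groups overlapped between genotypes too, at -0.22 on the log2 scale (SE 0.25, limma adjusted p = 0.645).

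Subunits 4, 6a and 7a of complex IV each have a widespread form and a form tied to particular tissues or to low oxygen. Cox7a1, the form typical of heart and skeletal muscle (chr7:30184144-30186078, plus strand), rose to 4.64, 3.23, 4.55 and 10.98 CPM in WT_TAM, against 0.141, 0.154 and 0.293 CPM in WT_SP, where it rested on 2, 2 and 4 reads. Its log2 fold change was 3.06 (SE 0.39, limma adjusted p = 0.000279). Cox4i2, the low-oxygen form of subunit 4, had 2.11, 3.14, 5.77 and 9.02 CPM in WT_TAM and 0.705, 0.463 and 0.953 CPM in WT_SP (log2 fold change 2.04, SE 0.45, limma adjusted p = 0.0056). Cox6a2, the heart and muscle form of subunit 6a, went the other way, with 1.18, 0.686, 0.437 and 2.62 CPM in WT_TAM and 4.79, 4.79 and 5.79 CPM in WT_SP (log2 fold change -1.85, SE 0.41, limma adjusted p = 0.00578). The widespread partners Cox4i1, Cox6a1 and Cox7a2 did not pass the test, at 0.63, 0.80 and 0.90 with limma adjusted p of 0.211, 0.139 and 0.134. All 3 passed without the library labelled WT_TAM replicate 4, at 0.24, 0.38 and 0.43 (limma adjusted p = 0.0261, 0.00423 and 0.00118). They remained the more abundant transcripts by far: Cox4i1 had 346 to 1062 CPM in WT_TAM and 290 to 322 CPM in WT_SP.

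**Figure D4:**
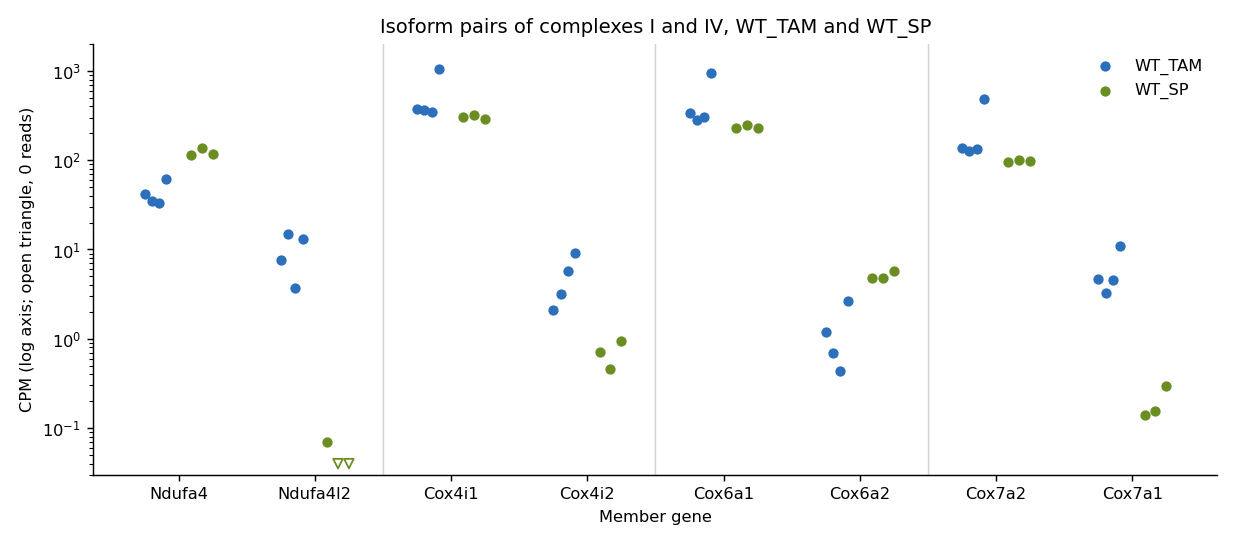
CPM (log axis) in each library for Ndufa4 and Ndufa4l2 and for the complex IV pairs Cox4i1 and Cox4i2, Cox6a1 and Cox6a2, and Cox7a2 and Cox7a1, with WT_TAM left of WT_SP. Each point is a library and an open triangle is a library with 0 reads; Ndufa4 lies between 33.3 and 61.8 in WT_TAM and between 114 and 136 in WT_SP, and Ndufa4l2 between 3.67 and 15.1 in WT_TAM with 0 reads in 2 WT_SP libraries.

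Atp5sl and Atp5s were the members of the complex V group that fell. Atp5sl, now named Dmac2 and known as an assembly factor of complex I, had 18.2, 20.5, 19.8 and 23.6 CPM in WT_TAM and 62.0, 66.9 and 70.7 CPM in WT_SP (log2 fold change -1.68, SE 0.17, limma adjusted p = 6.76e-05). Atp5s fell by 1.13 on the log2 scale (SE 0.29, limma adjusted p = 0.0126). Of the c subunit, the ring of ATP synthase that turns with the proton current, Atp5g1 rose by 1.04, while Atp5g3 and Atp5g2 stood at 0.51 and 0.34 and did not pass. Of the named nuclear genes, Ndufa4, Ndufa4l2, Atp5sl, Cox4i2, Cox6a2 and Cox7a1 passed in all 15 alternative settings, and Sdhd in 14.

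Windows of 300 bases, from 250 before to 50 after the annotated start, were taken from RefSeq (GRCm38.p6) and matched 66 of the 84 nuclear members. The motif that NRF1 is known to bind, written here as GCGCA, any base and GCGC in a row and searched on both strands, was in 17 of 66 (25.8%), beside 5.19% of 27025 genes. CCGGAAG, the core that ETS factors such as GABPA are known to bind, was in 16 (24.2%), beside 9.93% of all genes, and at least 1 of these motifs was in 29 (43.9%), beside 14.0%. The motif known for YY1, AAGATGG directly followed by CGGC, was in 4 (6.06%), beside 0.755%. A match is a description of letters, not of binding. The windows shown are those of Sdhd (chr9:50603800-50604099, minus strand), which passed in 14 of 15 settings, and of Ndufa4 (chr6:11907401-11907700, minus strand) and Cox7a1 (chr7:30183921-30184220, plus strand), of which the first fell and the second rose, each 5′ to 3′ on the strand of the gene. Capitals mark the motifs found, which do not overlap one another.
Sdhd: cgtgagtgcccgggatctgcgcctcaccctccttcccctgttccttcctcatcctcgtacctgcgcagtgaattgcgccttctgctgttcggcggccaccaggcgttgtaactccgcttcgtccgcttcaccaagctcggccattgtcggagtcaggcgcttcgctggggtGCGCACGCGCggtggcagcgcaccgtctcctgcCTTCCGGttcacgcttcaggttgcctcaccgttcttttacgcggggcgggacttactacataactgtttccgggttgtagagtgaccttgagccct
Ndufa4: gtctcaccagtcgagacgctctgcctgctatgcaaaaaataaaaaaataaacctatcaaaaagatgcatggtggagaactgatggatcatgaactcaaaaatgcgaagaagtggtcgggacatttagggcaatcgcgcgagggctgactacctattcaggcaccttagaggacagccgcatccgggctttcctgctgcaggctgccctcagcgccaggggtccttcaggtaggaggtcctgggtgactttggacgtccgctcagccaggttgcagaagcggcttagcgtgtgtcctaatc
Cox7a1: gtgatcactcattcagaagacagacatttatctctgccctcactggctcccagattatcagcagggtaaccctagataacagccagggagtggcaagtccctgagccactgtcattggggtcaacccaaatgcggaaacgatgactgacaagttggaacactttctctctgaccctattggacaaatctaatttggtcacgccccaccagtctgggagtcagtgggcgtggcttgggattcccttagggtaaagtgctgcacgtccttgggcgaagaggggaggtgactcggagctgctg
The Sdhd window holds 1 NRF1 motif and 1 ETS motif, and the other windows hold none of the 3 motifs.

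The mt- members were higher in WT_TAM than in WT_SP, by different amounts in different WT_TAM libraries. With limma 9 of the 11 tested rose at adjusted p under 0.05 (81.8%, beside 23.1% of all genes called higher), with a median log2 fold change of 1.99. In 7 of the 11 (63.6%) every WT_TAM library lay above every WT_SP library, beside 26.3% of all genes. With the library total alone the median was 1.52 and 4 of 11 rose, beside 14.9% of all genes. mt-Co1 had 4626, 32699, 7064 and 11072 CPM in WT_TAM and 1699, 2150 and 2239 CPM in WT_SP (log2 fold change 2.37, SE 0.57, limma adjusted p = 0.00899). mt-Co3 had 38.1, 156, 44.2 and 330 CPM in WT_TAM and 11.6, 17.1 and 14.1 CPM in WT_SP (log2 fold change 2.74, SE 0.69, limma adjusted p = 0.0114). mt-Nd1, at 2.196, and mt-Nd5, at 1.499, rose as well and have no near-identical copy. For all of these, the lowest WT_TAM library was above the highest WT_SP library on this scale, by little for some: mt-Nd5 had 577 CPM in WT_TAM replicate 1 and at most 515 CPM in WT_SP. This order depends on the scaling. mt-Nd5 had 6835 of 13077647 reads in WT_TAM replicate 1 and 7018 of 11331463 reads in WT_SP replicate 3. With the library total alone mt-Nd5 was at 1.02 and no longer passed (limma adjusted p = 0.071). Without the library labelled WT_TAM replicate 4 the median was 1.43 and 1 of 11 members passed, beside 65.7% of all genes. Without WT_TAM replicate 2, or WT_SP replicate 1, 2 or 3, there were 3, 2, 2 and 3, and the shares of all genes in these settings are not given. mt-Nd2, at 1.95, did not pass (limma adjusted p = 0.0615).

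mt-Nd3, a small complex I subunit, was the one mt- member with a lower mean in WT_TAM, while its copy on chromosome 1 was higher there. mt-Nd3 itself had 0.169, 2.45, 1.57 and 3.93 CPM in WT_TAM and 2.75, 2.93 and 3.45 CPM in WT_SP, with overlap (log2 fold change -0.77, SE 0.58, limma adjusted p = 0.301). With array weights mt-Nd3 was called lower, at -1.25 (limma adjusted p = 0.0175). Its copy Gm28438 had 4.31, 42.4, 10.1 and 35.9 CPM in WT_TAM and 0.282, 0.309 and 0.513 CPM in WT_SP. Added together they came to 4.48, 44.9, 11.7 and 39.8 CPM in WT_TAM and to 3.03, 3.24 and 3.96 CPM in WT_SP, a ratio of means of 7.40 with no overlap on this scale, in the direction of the other mt- genes. The copy thus held most of the summed reads in each WT_TAM library and little in WT_SP, although both genes share the stretch printed above. How reads were assigned between them was not tested. In none of the other 6 pairs with a copy on chromosome 1 did adding the copy turn the direction: for mt-Co3 the ratio of the means was 9.96 for the gene and 7.78 with its copy added, and for mt-Co1 6.83 and 6.93. Between genotypes mt-Nd3 had a ratio of means of 0.446 alone and 0.210 with its copy.

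**Figure D5:**
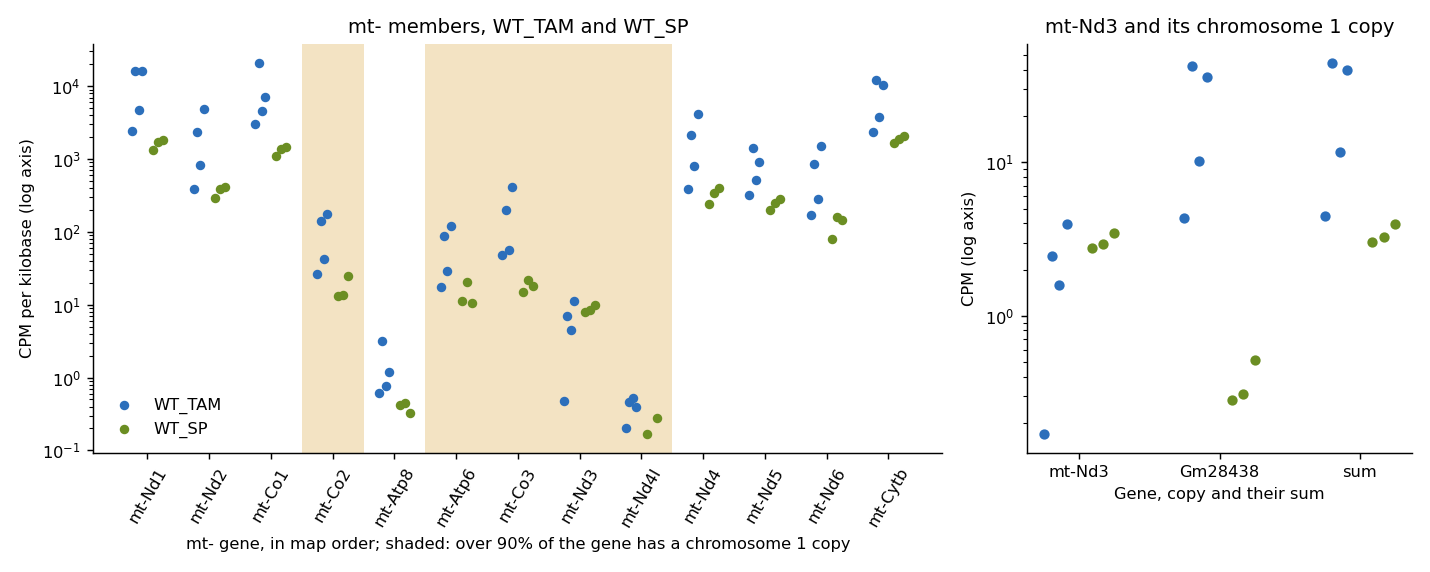
Left, CPM per kilobase (log axis) of the 13 mt- members in map order in each WT_TAM and WT_SP library, shaded where over 90% of the gene has a copy on chromosome 1; 1 WT_SP library with 0 reads of mt-Nd4l is not drawn. Right, CPM (log axis) of mt-Nd3, of its copy Gm28438 and of their sum, with WT_TAM left of WT_SP; the sum lies between 4.48 and 44.9 in WT_TAM and between 3.03 and 3.96 in WT_SP.

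Genes that serve the chain without being subunits did not all follow it. Their counts are read beside all genes, of which 23.1% were called higher and 23.6% lower, and 32.2% and 33.5% without the library labelled WT_TAM replicate 4. Of 9 tested mitochondrial carriers and channels 6 rose in WT_TAM over WT_SP and 0 fell, with a median log2 fold change of 0.83 (0.35 with the library total alone). Vdac1, the main channel of the outer membrane, averaged 297 ± 45.2 CPM in WT_TAM (SD, n = 4) and 92.0 ± 7.92 CPM in WT_SP (SD, n = 3). Of 14 genes for coenzyme Q and cytochrome c 5 rose and 0 fell, with a median of 0.34, which turned to -0.11 with the library total alone. Cycs, cytochrome c itself, averaged 141 ± 9.79 CPM in WT_TAM (SD, n = 4) and 78.1 ± 7.32 CPM in WT_SP (SD, n = 3; limma adjusted p = 0.00228). Of 14 citric acid cycle genes 1 rose, Idh2, at a log2 fold change of 0.67, and the median of 0.08 was -0.39 with the library total alone. Without the library labelled WT_TAM replicate 4 the carriers and channels had 8 higher and 0 lower, the citric acid cycle 7 higher and 3 lower, and coenzyme Q and cytochrome c 8 higher and 1 lower.

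In the machinery that copies and reads the mitochondrial genome, the share of genes that fell was near that of all genes, while none rose. Of 28 tested genes of mitochondrial genome expression 0 rose and 8 fell in WT_TAM (28.6% lower, beside 23.6% of all genes), with a median log2 fold change of -0.51, and -0.96 with the library total alone. Tfam, which packages mitochondrial DNA and starts its transcription, averaged 21.7 ± 3.90 CPM in WT_TAM (SD, n = 4) and 61.6 ± 3.94 CPM in WT_SP (SD, n = 3), and differed by -1.5003 on the log2 scale (SE 0.19, limma adjusted p = 0.000252). Polrmt, the mitochondrial RNA polymerase, fell by 0.75 on the log2 scale (SE 0.20, limma adjusted p = 0.0143). Of 10 regulators of respiratory gene transcription 3 fell (beside 23.6% of all genes) and 0 rose. Those that fell were Nrf1, Gabpb1 and Sp1, and Ppargc1a, a coactivator of mitochondrial biogenesis, averaged 1.27 CPM in WT_TAM and 2.91 CPM in WT_SP without passing (limma adjusted p = 0.0778). Without the library labelled WT_TAM replicate 4 there were 2 higher and 13 lower (46.4%, beside 33.5% of all genes) of the 28 genes, and 0 higher and 6 lower of the 10. Of 76 mitochondrial ribosomal proteins 9 rose and 1 fell, with a median of 0.19 that turned to -0.28 with the library total alone, and of 41 assembly factors 1 rose and 3 fell, with a median of -0.22. Without the library labelled WT_TAM replicate 4 these were 17 higher and 5 lower of 76, and 2 higher and 11 lower of 41.

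Between genotypes the same lists had 0 genes past the limma threshold, as had all genes. Their median log2 fold changes were -0.38 over 76 mitochondrial ribosomal proteins, -0.30 over 8 carriers and channels, -0.22 over 14 genes of coenzyme Q and cytochrome c and -0.21 over 41 assembly factors. Citric acid cycle genes, at -0.06, and genes of mitochondrial genome expression, at -0.07, lay closer to 0, and both medians turned positive, at 0.01 and 0.00, with the library total alone. Regulators of respiratory gene transcription were at 0.15.

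Beside the contrast of tumor and spleen stand large differences in the markers of other cells. The 7 fibroblast markers all rose, summing to 438 to 986 CPM in WT_TAM and 8.80 to 45.5 CPM in WT_SP. The 7 B and plasma cell markers all fell, to 10.3 to 74.5 CPM in WT_TAM, as did all 6 erythroid markers, which summed to 172 to 771 CPM in WT_TAM and 982 to 4712 CPM in WT_SP. The 8 T and NK cell markers summed to 105 to 184 CPM in WT_TAM and 1031 to 1117 CPM in WT_SP, and the 10 neutrophil markers to 118 to 238 CPM in WT_TAM and 1075 to 2942 CPM in WT_SP. The 7 markers of splenic red pulp macrophages summed to 260 to 694 CPM in WT_TAM and 3881 to 4345 CPM in WT_SP, all lower in WT_TAM. The part of these cells in the respiratory chain values was not tested.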

How the data were processed

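RNA sequencing values of 11 libraries were used (4 KO_TAM, 4 WT_TAM and 3 WT_SP), grouped by the sample titles. The authors deposited 2 tables, 1 for KO_TAM and WT_TAM (genotype table) and 1 for WT_TAM and WT_SP (site table). Their values are not counts despite the tables' names and were handled as a deposited score. From the values themselves, not from a header or label, each equals whole reads divided by gene length, library total and a size factor. The submitters' processing notes name mm10 as build, and TopHat2, HISAT, HISAT2, HTSeq, SAMtools and DESeq2 as tools. Which tool did what, in which version, with which annotation and strand setting, is not stated in the sources used here, so a gene and an antisense or overlapping partner, or a near-identical copy, may share reads.

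Steps between low values gave back whole reads, for 99.9% to 100.0% of each library total. Among the KO_TAM and WT_TAM values, 99 cells in 35 genes were not whole, none of them in a gene described here. CPM are reads over library total and the size factor recovered from the same table, and 3 reads are worth 0.211 to 0.492 CPM. All intervals and this floor cover counting error only. Because the unit is not counts, limma 3.58.1 in R 4.3.3 was used on log2(CPM + 0.5), with trend and robust variance shrinkage, in place of a count test. A gene entered if it reached, in a number of libraries equal to the size of the smaller group, the CPM that 10 reads make in a library of median size, and if it had 15 reads in all. Fold changes on this scale understate changes of low genes. P-values are two-sided and adjusted by Benjamini-Hochberg over all genes tested, with a threshold of 0.05. The fit was tested on simulated data. Replicate pairs differed by more than sampling noise (lowest chi-square per degree of freedom 11.1). Copies were found with blastn 2.17.0 among GENCODE vM21 transcripts.

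The members, the gene lists and the rule for named genes were chosen with earlier results of these data known. The rule names all mt- members, the 2 nuclear members per complex with the highest level per kilobase, isoform pairs, the 5 called members with the largest rise and fall and called members that go against their complex; where fewer than 5 were called, the 5 with the lowest unadjusted p in each direction. Ndufb8, Sdhc, Uqcrq, Uqcrb, Idh2, Ppargc1a and the members listed because their groups do not overlap were named after their values were seen. Columns of per-sample values not used numbered 0. Alternatives were other scalings, pseudocounts of 1 and 0.1, no filter, limma voom, array weights, each library left out, the library labelled WT_TAM replicate 4 left out together with KO_TAM replicate 2, and the replicate number as a block. Values of 1 member are not reported here.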

Additional observations from a re-analysis of the deposited data

Results flagged for a closer look

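In 23 values 1 library of 4 lay farther from the rest of its group than Dixon's 95% critical value allows, given as the gap to the nearest library over the range of the group. Chance gives this in about 1 in 20 groups, but the number of groups screened and the share over all genes are not given here. The values are not independent, since most share 1 library and the sums contain the single genes. In 22 of them the library labelled WT_TAM replicate 4 was the one apart, within the genotype table. It was highest for the nuclear sums of complex I (0.948), complex III (0.912), complex IV (0.939), complex V (0.907) and all nuclear members (0.937). Among complex I genes it was highest for Ndufa2 (0.973) and Ndufv3 (0.876) and lowest for Ndufs1 (0.922). Of complex II it was lowest for Sdha (0.94) and highest for Sdhb (0.863), and of complex III highest for Uqcr10 (0.87) and Uqcr11 (0.896). In complex IV it was highest for Cox4i1 (0.978), Cox6a1 (0.923), Cox6b1 (0.908), Cox7a1 (0.838), Cox7a2 (0.975), Cox7b (0.8293) and Cox8a (0.909). In complex V it was highest for Atp5g1 (0.936), Atp5g2 (0.881) and Atp5l (0.919). The remaining value was Atp5s in KO_TAM, where replicate 4 was lowest (0.885). The cause was not tested.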

How the results depend on the processing

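Of 142 alternatives run on the summary results, 124 were labelled the same. A count of calls was the same if it stayed within a set factor. A median or a ratio was the same if it moved, on the log2 scale, by less than the pooled SD across libraries. The label thus does not mean that every call was kept. The mt- to nuclear ratio cannot change with the scaling, so its alternatives of scaling could only be the same. In WT_TAM over WT_SP, nuclear members called numbered 23, against 10 with the library total alone, 48 with array weights, and 8 to 54 with 1 library left out; the nuclear median of 0.50 was 0.0241 with the library total alone. mt- members called numbered 9, against 4 with the library total alone, 4 without a filter, 3 with array weights (2 higher, and mt-Nd3 lower) and 1 to 10 with 1 library left out. Same-numbered libraries did not deviate together, with r from -0.162 to 0.198 between genotypes and -0.0937 to 0.098 between sites, so numbers were not taken to pair libraries; a replicate block gave 0 calls between genotypes, and 53 nuclear and 4 mt- calls between sites (3 higher and mt-Nd3 lower). The block between sites also leaves out the library labelled WT_TAM replicate 4, which alone gives 54 nuclear calls and 1 mt- call. Leaving the 99 cells as deposited changes no member. The cause of these shifts was not tested, and the calls over all genes are given above for only some of these settings. Some named genes that passed neither with all libraries nor in the setting named turned sign. Between genotypes the log2 fold change of Atp5s was 0.0167 with the library total alone, 0.0152 with array weights and -0.268 to 0.149 with 1 library left out. Cox7a2 was at 0.0226 with array weights, 0.0764 without both libraries that stand apart and -0.632 to 0.0586 with 1 library left out. Sdha was at -0.275 with array weights, -0.294 without both libraries and -0.312 to 0.133 with 1 left out. mt-Nd3 was at 0.0104 with array weights and 0.0279 without both libraries. Between sites, with the library total alone, Atp5b was at -0.18, Atp5g2 at -0.14 and Ndufa1 at -0.0793. Genes with values near 3 reads, such as Cox8b, Cox8c, Cox7b2, mt-Atp8 and mt-Nd4l, were too shallow to compare.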
